A study of Mus musculus with 17 samples.

Results

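The matrix proteoglycans followed here are 10 genes chosen by symbol out of 23420 in the table of counts: the small leucine-rich proteoglycans Dcn, Bgn, Lum, Fmod, Ogn, Prelp and Aspn, the large hyaluronan-binding proteoglycans Acan and Vcan, and the link protein gene Hapln1. All 10 had an entry. RNA was sequenced in 17 libraries of mouse cells, all labelled with the R172H knock-in allele of p53 on C57BL/6. The groups were 4 second-generation tumour lines (TL2), each grown from a tumour that a first-generation line had formed on injection; 6 first-generation tumour lines (TL1), derived from tumours of mesenchymal stem cells; 3 libraries of mesenchymal stem cells from bone marrow (MSC); 2 clones of a first-generation line labelled as p53 knockout (KO clone); and 2 clones labelled p53 Mut (Mut clone). The labels name no further treatment, give no age of the mice and do not say which line the clones came from or how the knockout was made. Titles of MSC and tumour line libraries carry a number, kept here in their names (TL2 3), and a letter was added where a group repeats a number (TL1 3a). Tumour lines were grown on agar with leukaemia inhibitory factor and MSC in a medium of their own, so culture and origin cannot be told apart in the comparison of tumour lines with MSC.

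Small leucine-rich proteoglycans are secreted proteins built of leucine-rich repeats that bind collagen fibrils. Many carry chondroitin, dermatan or keratan sulfate chains, while others, such as asporin, usually carry none. Aggrecan and versican are much larger proteins that attach many such chains to a core and bind hyaluronan at one end, a contact that link proteins hold in place. Stromal cells of bone marrow are known to secrete biglycan, decorin and versican, while aggrecan and link protein 1 are known for cartilage.

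The members sit in a few neighbourhoods of the mouse genome. Coordinates are those of GENCODE M21 on GRCm38, the assembly also called mm10. Dcn (chr10:97479609-97518143) and Lum (chr10:97565128-97572703) are neighbours on chromosome 10. On chromosome 1, Prelp (chr1:133910304-133921414) lies between Optc and Fmod (chr1:134037254-134048277). Aspn (chr13:49544443-49567565) and Ogn (chr13:49608046-49624501) lie with Ecm2 and Omd in a row of leucine-rich genes on chromosome 13, where gaps between neighbours are 11653 to 15223 bases. Hapln1 (chr13:89539796-89611652) and Vcan (chr13:89655312-89742509) are neighbours further along that chromosome. Bgn (chrX:73483602-73495933) and Acan (chr7:79053483-79115099) have no other member beside them.

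The promoters of 4 members are shown because the results turn on these genes: Vcan and Ogn were called lower in tumour lines, Aspn stands beside Ogn, and Bgn had the highest mean level per length in every group. Each sequence is the gene's strand from 250 bases before to 50 after the RefSeq start, on GRCm38.p6: chr13:89742463-89742762 (minus strand) for Vcan, chr13:49607765-49608064 (plus strand) for Ogn, chr13:49544193-49544492 (plus strand) for Aspn and chrX:73483351-73483650 (plus strand) for Bgn. Capitals mark matches, on either strand, to 6 motifs: the TATA box TATAAA, the CAAT box CCAAT, the GC box GGGCGG, the AP-1 motif TGANTCA, the TEAD motif CATTCC and the RUNX motif TGTGGT. Neighbouring matches may overlap.
Vcan: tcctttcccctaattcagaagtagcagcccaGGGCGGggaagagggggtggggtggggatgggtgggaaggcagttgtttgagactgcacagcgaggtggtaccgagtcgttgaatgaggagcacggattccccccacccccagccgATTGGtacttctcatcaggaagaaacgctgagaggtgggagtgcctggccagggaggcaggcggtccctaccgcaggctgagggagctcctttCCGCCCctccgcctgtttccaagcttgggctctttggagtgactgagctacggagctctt
Ogn: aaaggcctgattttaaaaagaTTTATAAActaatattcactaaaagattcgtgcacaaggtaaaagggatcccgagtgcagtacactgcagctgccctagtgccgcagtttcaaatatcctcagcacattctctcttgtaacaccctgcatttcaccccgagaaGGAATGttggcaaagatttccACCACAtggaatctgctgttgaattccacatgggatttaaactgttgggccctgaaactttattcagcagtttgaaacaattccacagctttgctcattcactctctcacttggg
Aspn: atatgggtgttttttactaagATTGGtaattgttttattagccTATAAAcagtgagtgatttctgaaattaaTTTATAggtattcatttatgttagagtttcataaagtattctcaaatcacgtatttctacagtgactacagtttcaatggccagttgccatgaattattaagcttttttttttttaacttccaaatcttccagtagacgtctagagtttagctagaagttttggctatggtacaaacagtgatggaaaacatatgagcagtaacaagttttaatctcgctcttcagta
Bgn: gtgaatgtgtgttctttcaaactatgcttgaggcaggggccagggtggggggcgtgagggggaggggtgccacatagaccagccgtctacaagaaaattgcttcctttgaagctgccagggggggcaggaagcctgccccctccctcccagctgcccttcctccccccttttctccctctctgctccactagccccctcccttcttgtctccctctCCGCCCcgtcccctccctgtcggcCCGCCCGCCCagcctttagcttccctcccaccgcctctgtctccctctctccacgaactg

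Ogn and Aspn each held 2 matches to TATAAA and none to GGGCGG, while Vcan and Bgn held 2 and 3 matches to GGGCGG and none to TATAAA. The TATAAA matches lie at -229 and -227 from the RefSeq start in Ogn, where they overlap on opposite strands, and at -207 and -178 in Aspn. Of 32851 RefSeq promoters of this length, 13.6% held TATAAA, 37.4% CCAAT, 35.7% GGGCGG, 7.81% TGANTCA, 14.7% CATTCC and 16.8% TGTGGT. Besides these, 72.3% held the E-box letters CANNTG, which all 4 sequences hold and which are left in lower case. The promoters of Ogn and Aspn have 4 and 3 CpG pairs, those of Vcan and Bgn 12 and 9, and the median over all promoters was 7 (quartiles 3 and 20). A match to such letters describes the sequence and is no sign of binding. Promoter sequences were at hand for 8 of the 10 members.

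Library totals ranged from 12215025 to 15962341 counts. Values per library are CPM, that is counts relative to a common library total, scaled over all 17 libraries. Of the counts of KO clone 2, 4.14% fell on the ribosomal RNA gene Rn45s, which held 0.476% to 1.59% in the other libraries. The 12 mesenchymal stromal markers, all with counts in both groups, summed to 1174 to 9263 CPM in tumour lines and to 18120 to 26180 CPM in MSC. Most of that sum came from Col1a1, Col1a2 and Cxcl12, which averaged 7718, 7525 and 4029 CPM in MSC. Of the 12 stromal markers, 8 had a negative edgeR log2 change for tumour lines minus MSC and 4 a positive one. The 11 chondrocyte markers summed to 43.2 to 142 CPM in tumour lines and 261 to 792 CPM in MSC, with Matn1 and Cnmd at 0 in both groups. The 10 macrophage and haematopoietic markers summed to 15.3 to 65.0 CPM in tumour lines and 11.1 to 36.9 CPM in MSC, and the 7 endothelial markers to at most 4.78 CPM in either group. The 6 epithelial markers summed to 5.11 to 309 CPM in tumour lines and 0.456 to 1.70 CPM in MSC, where Krt5 and Krt14 were at 0, so every line lay above every MSC library. The 6 skeletal muscle markers summed to 11.7 to 909 CPM in TL2 and 268 to 2659 CPM in TL1, against 9.72 to 99.1 CPM in MSC. The 8 osteoblast markers summed to 937 to 11000 CPM in tumour lines and 1083 to 1893 CPM in MSC, and the 6 neural markers to 126 to 1249 CPM in tumour lines and 174 to 509 CPM in MSC, with Sox10 at 0 in both groups. Spp1 made up most of the osteoblast sum, with 10780 of the 11000 CPM in TL1 3a. Of 6 tested osteoblast markers, 4 had a negative edgeR log2 change for tumour lines minus MSC and 2 a positive one. Their median log2 change was -2.36, so the sum does not stand for the list. In edgeR, 0 of 4 tested epithelial, 0 of 6 muscle, 0 of 3 neural and 0 of 2 endothelial markers were called. Called lower were 3 of 12 tested mesenchymal stromal, 2 of 7 chondrocyte and 2 of 6 osteoblast markers, with 0 called higher. Of 7 tested macrophage and haematopoietic markers, 1 was called lower and 1 higher. Over all genes tested, 4.79% were called lower and 3.86% higher. The part of such markers in the results on the members was not tested.

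The members together took 0.0697% to 0.280% of the counts of TL2 libraries and 0.0147% to 0.703% of TL1 libraries, against 0.554% to 0.772% of MSC libraries. Of the clones, KO clone 1 and 2 gave 0.182% and 0.0335%, and Mut clone 1 and 2 gave 0.0251% and 0.0678%. Bgn made up 71.0% to 79.9% of the members' counts in MSC. In TL2 2a and TL1 2a, Bgn made up only 6.80% and 19.6%, and Vcan 61.7% and 71.3%.

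**Figure D1:**
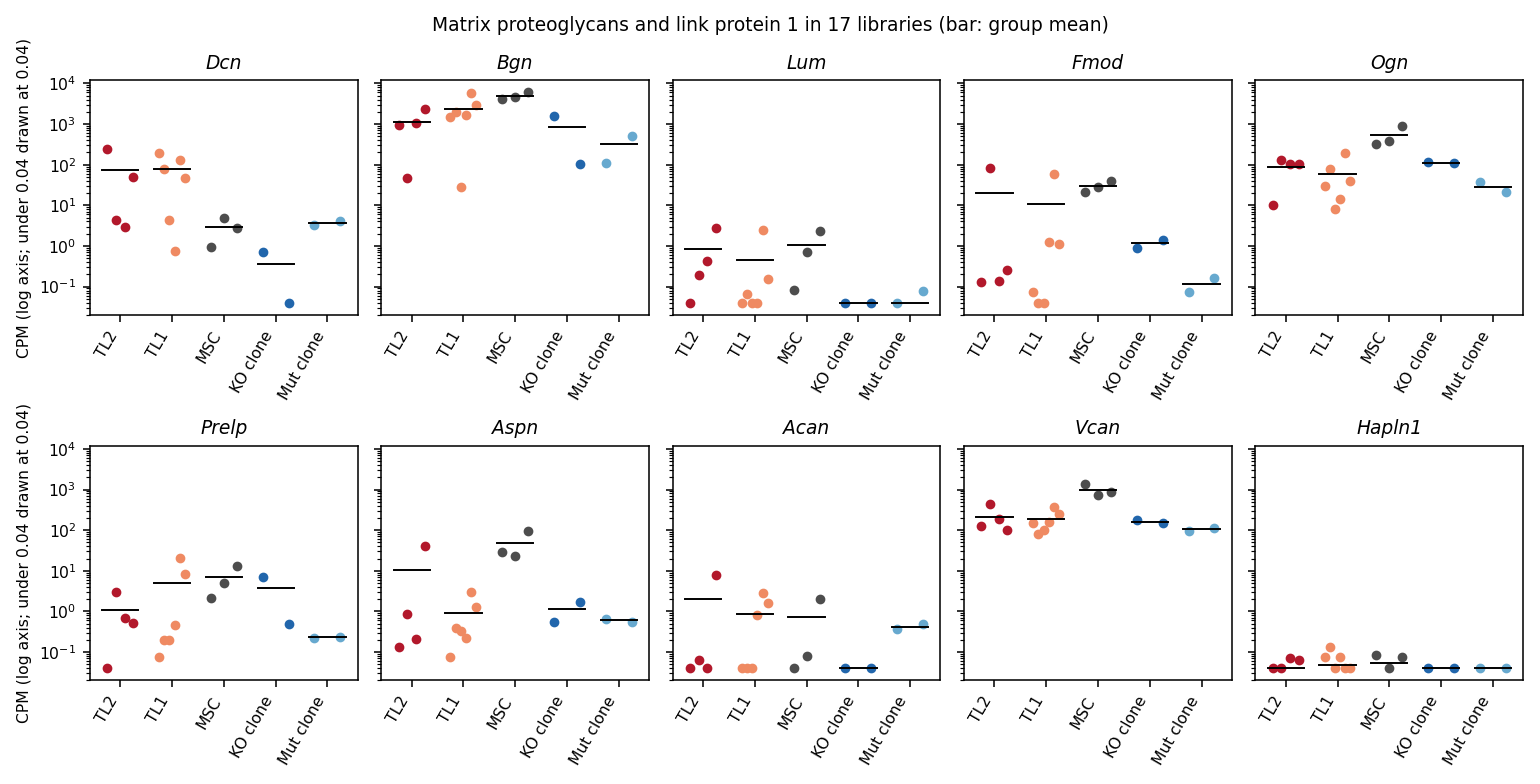
CPM of each of the 10 members (log axis, values under 0.04 drawn there) in every library of TL2, TL1, MSC, KO clone and Mut clone; points are libraries and bars group means. Vcan and Ogn lie lower in all 10 tumour lines than in the 3 MSC libraries, while Dcn spreads from 0.751 to 241 CPM among the lines.

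Tumour lines were set against MSC to ask how the members differ once the stem cells have given rise to tumours. Vcan, the large hyaluronan-binding proteoglycan, and Ogn, the leucine-rich protein osteoglycin, fell in tumour lines, and no member was called higher. Of the 10 members, 9 had enough counts to be tested and 2 were called lower at an adjusted p under 0.05 with the quasi-likelihood test of edgeR, against 4.79% of the 13262 genes tested. The 0 members called higher stand beside 3.86% of genes. The tested members had a median log2 change of -1.53, against 0.10 over all genes tested. With library totals in place of scaled library sizes, 547 genes were called lower and 680 higher in all, against 635 and 512. In bulk samples, fewer cells of a type and less RNA per cell cannot be told apart.

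Versican was lower in every tumour line. Vcan had 127, 428, 185 and 98.9 CPM in TL2 1, 2a, 2b and 3, and 81.5, 156 and 363 CPM as the lowest, median and highest of TL1, against 1339, 733 and 890 CPM in MSC. The highest line, TL2 2a, stayed below the lowest MSC library, so the groups did not overlap. The mean was 195 ± 118 CPM in tumour lines and 987 ± 315 CPM in MSC (SD, n = 10 and 3), a log2 change of -2.29 (SE 0.44, edgeR adjusted p = 0.00813). The call was lost without MSC 1, the highest library, where the log2 change was -2.01 (edgeR adjusted p = 0.0646). The fit took the 10 lines as separate samples, though TL1 and TL2 lines of the same title number deviated together over all genes. With the lines summed per number, Vcan stayed called (log2 change -2.38, edgeR adjusted p = 0.0189).

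Osteoglycin was also lower in every tumour line. Ogn had 10.3, 129, 105 and 102 CPM in TL2 1, 2a, 2b and 3, and 7.95, 35.7 and 190 CPM as the lowest, median and highest of TL1, against 331, 380 and 907 CPM in MSC. All lines lay below all MSC libraries, and TL2 1, TL1 2a and TL1 2b were the lowest. The mean was 70.9 ± 60.5 CPM in tumour lines and 539 ± 320 CPM in MSC (SD, n = 10 and 3), a log2 change of -2.87 (SE 0.76, edgeR adjusted p = 0.0355). The call was lost on leaving out MSC 1 (adjusted p = 0.0874), MSC 2 (0.0655), MSC 3 (0.22), TL1 1a (0.0515) or TL2 2b (0.0558) in the edgeR fit. With the lines summed per number, Ogn stayed called (log2 change -2.91, edgeR adjusted p = 0.0317).

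Aspn, the gene of asporin, which binds collagen and is known to hold back TGF-beta signalling, did not pass the test. It had 0.131, 0.841, 0.210 and 40.0 CPM in TL2 1, 2a, 2b and 3, and 0.0749, 0.362 and 3.05 CPM as the lowest, median and highest of TL1, against 28.2, 23.2 and 93.4 CPM in MSC. Of the lines, 9 lay below all MSC libraries and TL2 3 lay between them. The log2 change was -3.96 (SE 1.22, edgeR adjusted p = 0.0617). DESeq2 called it lower (-4.00, adjusted p = 0.0123), as did limma-voom (-5.67, adjusted p = 0.00267), while with the lines summed per number it was -3.16 (edgeR adjusted p = 0.239). Without TL2 3 it was -6.32 (edgeR adjusted p = 0.00225), and without TL1 3a -4.44 (edgeR adjusted p = 0.0369).

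The other leucine-rich genes of the row on chromosome 13 were also lower in tumour lines. Ecm2, the gene of another leucine-rich matrix protein, had 0.582 ± 0.194 CPM in tumour lines and 3.62 ± 2.78 CPM in MSC (SD, n = 10 and 3), a log2 change of -2.58 (SE 0.45, edgeR adjusted p = 0.00461), with all 10 lines below all MSC libraries. Omd, the gene of the bone keratan sulfate proteoglycan osteomodulin, had 5.86 ± 3.29 CPM in tumour lines and 23.0 ± 23.6 CPM in MSC (SD, n = 10 and 3), a log2 change of -1.92 (SE 0.54, edgeR adjusted p = 0.0446). MSC 3 was the highest library for all 4 genes of the row, and without it neither Ecm2 (log2 change -1.72, edgeR adjusted p = 0.102) nor Omd (-0.61, adjusted p = 0.613) was called. Omd was called in only 3 of the 13 edgeR fits that left out 1 library. With the lines summed per number, which leaves 3 sums against 3 MSC libraries, neither Ecm2 (edgeR adjusted p = 0.0507) nor Omd (0.161) was called. Cenpp, a centromere protein gene that runs across Ogn and Aspn on the opposite strand, shares 0 exon bases with Ogn and 7 with Aspn. It had 7.73 ± 3.34 CPM in tumour lines and 9.13 ± 2.85 CPM in MSC, and a log2 change of -0.18 (SE 0.39, edgeR adjusted p = 0.797). The strand setting of the counting is not given in the sources used here.

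**Figure D2:**
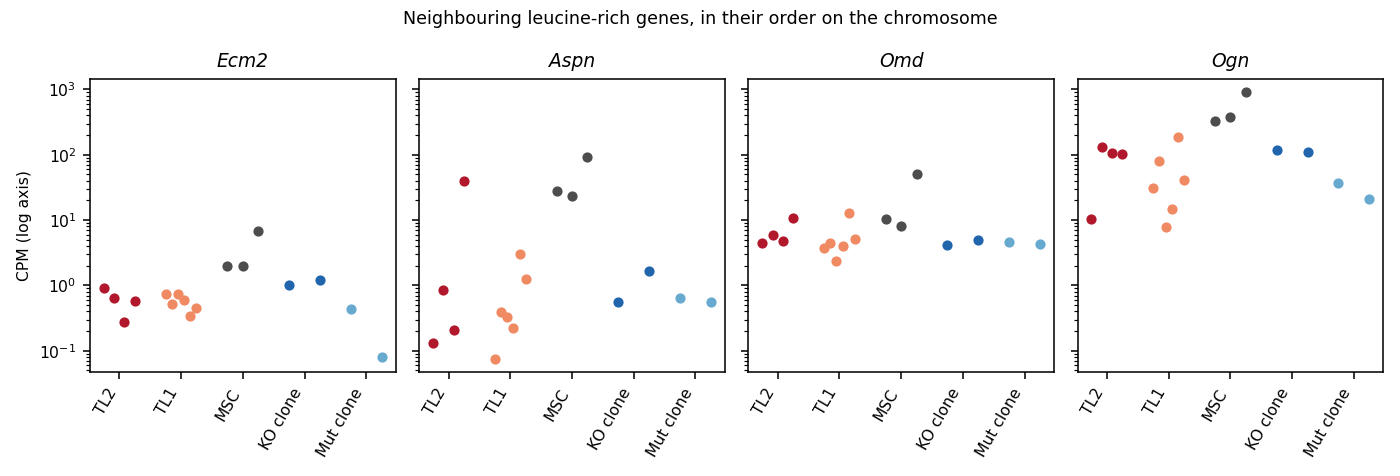
CPM (log axis) of the neighbouring genes Ecm2, Aspn, Omd and Ogn, in their order on chromosome 13, in each library of TL2, TL1, MSC, KO clone and Mut clone. Ogn and Ecm2 lie below all 3 MSC libraries in all 10 tumour lines, Aspn in 9 and Omd in 8.

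Decorin split the tumour lines by the number in their titles. Dcn, whose product binds collagen and sequesters TGF-beta, had 241 CPM in TL2 1 and 193 and 79.4 CPM in TL1 1a and 1b, against 0.920 CPM in MSC 1. Lines of number 3 had 49.7 CPM in TL2 3 and 133 and 46.7 CPM in TL1 3a and 3b, against 2.81 CPM in MSC 3. Lines of number 2 had 4.47 and 2.87 CPM in TL2 2a and 2b and 4.41 and 0.751 CPM in TL1 2a and 2b, against 4.85 CPM in MSC 2. The 6 lines of numbers 1 and 3 were thus above all MSC libraries, while the 4 lines of number 2 overlapped them.

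Over all lines the Dcn mean was 75.6 ± 86.4 CPM in tumour lines and 2.86 ± 1.96 CPM in MSC (SD, n = 10 and 3). The log2 change of 4.75 (SE 1.83) did not pass the test (edgeR adjusted p = 0.120). DESeq2 called it, at a log2 change of 4.72 (adjusted p = 0.00418). Leaving out each library in turn gave edgeR adjusted p values of 0.0850 to 0.340. TL1 and TL2 libraries of the same number deviated together over all genes (correlations of 0.476, 0.376 and 0.490 for numbers 1, 2 and 3), and those of TL1 or TL2 with MSC of the same number lay between -0.03 and 0.20. Genes were the points of these correlations and are not independent.

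**Figure D3:**
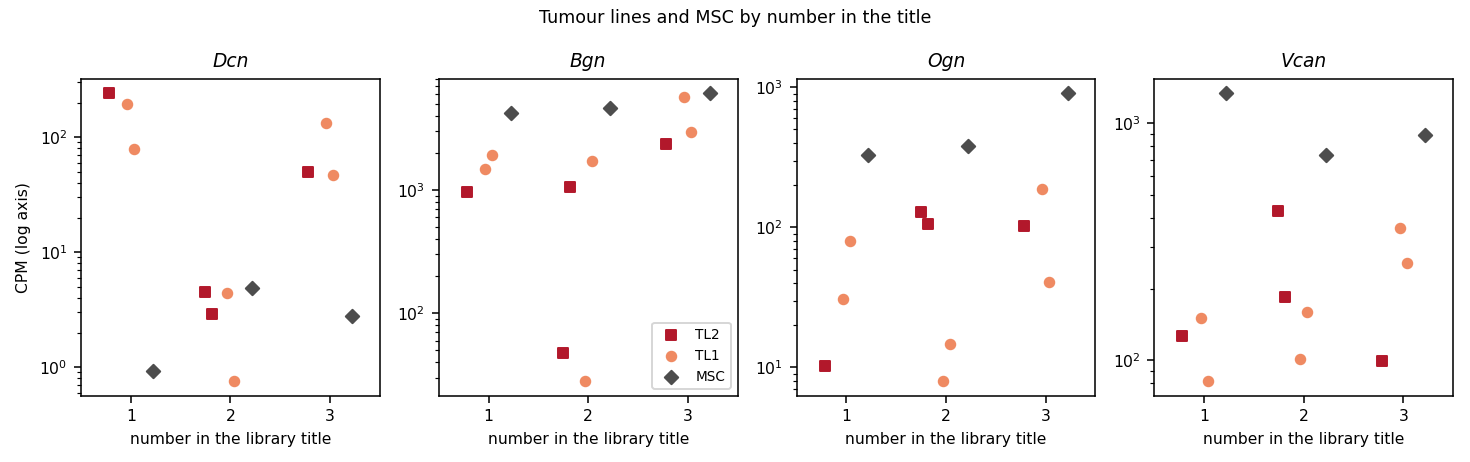
CPM (log axis) of Dcn, Bgn, Ogn and Vcan in TL2, TL1 and MSC libraries, placed by the number in the library title. Dcn reaches 46.7 to 241 CPM in lines of numbers 1 and 3 and at most 4.47 CPM in lines of number 2; Bgn drops to 47.3 and 27.9 CPM in TL2 2a and TL1 2a.

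Biglycan, the X-linked relative of decorin, varied widely among the lines. Bgn had 965, 47.3, 1064 and 2378 CPM in TL2 1, 2a, 2b and 3, and 27.9, 1824 and 5722 CPM as the lowest, median and highest of TL1, against 4212, 4655 and 6126 CPM in MSC. Of the lines, 9 lay below all MSC libraries, TL1 3a lay among them, and TL2 2a and TL1 2a stood far below the other lines. The log2 change of -1.61 (SE 0.92) did not pass the test (edgeR adjusted p = 0.289), and leaving out each library in turn gave edgeR adjusted p values of 0.193 to 0.558.

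Fibromodulin, which shapes collagen fibrils in tendon, exceeded the MSC range in 2 lines and lay below it in 8. Fmod had 0.131, 80.8, 0.140 and 0.257 CPM in TL2 1, 2a, 2b and 3, and 0, 0.598 and 60.6 CPM as the lowest, median and highest of TL1, against 20.9, 27.7 and 39.9 CPM in MSC. TL2 2a and TL1 3a were the 2 lines above all MSC libraries. The log2 change of -0.97 (SE 1.92) did not pass the edgeR test (adjusted p = 0.773). In limma-voom, which works on log values, it was -5.43 and passed (adjusted p = 0.0167).

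The remaining members were low. Prelp, a heparin-binding leucine-rich protein, had 0, 3.04, 0.701 and 0.515 CPM in TL2 1, 2a, 2b and 3, and 0.0749, 0.326 and 21.1 CPM as the lowest, median and highest of TL1, against 2.18, 5.09 and 13.4 CPM in MSC. TL1 3a exceeded all MSC libraries and 7 lines lay below them (log2 change -1.53, SE 1.37, edgeR adjusted p = 0.504). The annotation places Gm15851, an antisense gene not analysed here, across 350 exon bases of Prelp.

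Lum, the gene of the corneal and dermal keratan sulfate proteoglycan lumican, had at most 2.83 CPM in TL2 and 2.49 CPM in TL1, against 0.0837, 0.727 and 2.35 CPM in MSC. TL2 3 and TL1 3a were the highest lines, and 4 lines had 0 counts. The log2 change was -0.72 (SE 1.49, edgeR adjusted p = 0.784).

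Acan, the cartilage proteoglycan gene, had 0, 0.0647, 0 and 7.91 CPM in TL2 1, 2a, 2b and 3 and 0, 0.413 and 2.84 CPM as the lowest, median and highest of TL1, against 0, 0.0808 and 2.05 CPM in MSC. Lines of number 3 were the 3 highest of the tumour lines, and MSC 3 was the highest MSC library. The log2 change was 0.90 (SE 1.97, edgeR adjusted p = 0.796) and turned to -2.13 without TL2 3 (adjusted p = 0.419).

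Hapln1, the link protein gene beside Vcan, had 6 counts in all 10 tumour lines, 2 in the 3 MSC libraries and 0 in all 4 clones. It was too low to be tested in any comparison. The ratio of tumour lines to MSC was 0.774, with an exact 95% counting interval of 0.138 to 7.84 that covers counting error only.

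**Figure D4:**
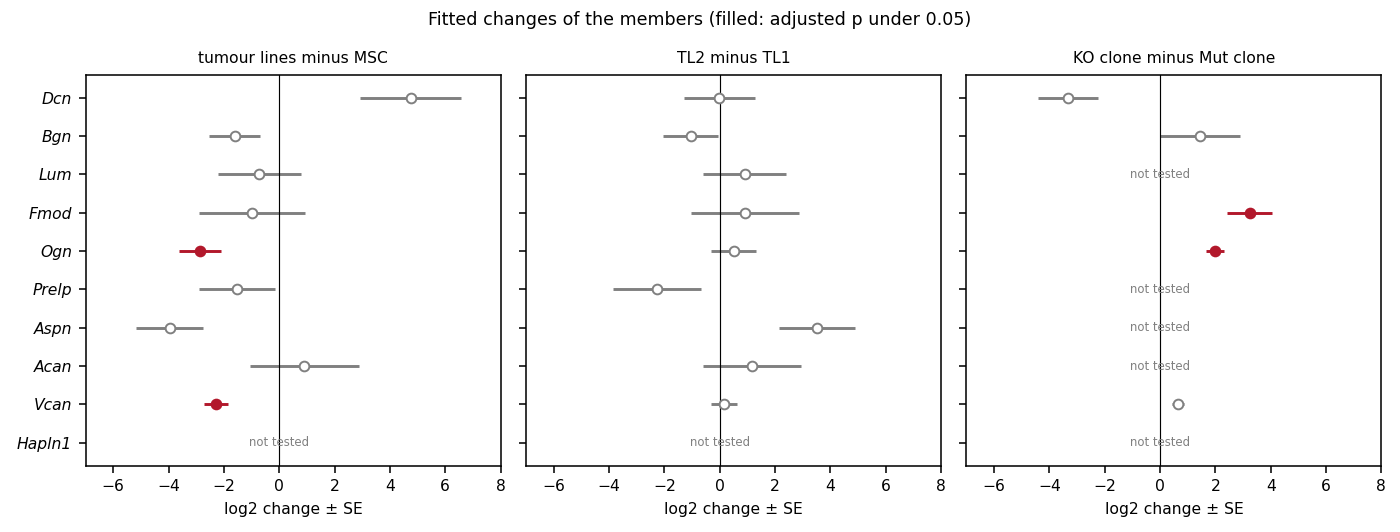
Log2 change ± SE of each tested member in tumour lines minus MSC, TL2 minus TL1 and KO clone minus Mut clone, with filled points at an edgeR adjusted p under 0.05. Filled points stand for Ogn (-2.87) and Vcan (-2.29) in the first comparison and for Fmod (3.24) and Ogn (1.98) in the clones.

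Levels can be set between genes only per length, here as CPM per kilobase of the longest coding transcript. In tumour lines the order of mean levels was Bgn at 756, Dcn at 43.0, Ogn at 27.6, Vcan at 15.7 and Fmod at 4.63 CPM per kilobase, with the other members below 2.00. In MSC it was Bgn at 2066, Ogn at 210, Vcan at 79.5, Aspn at 20.7 and Fmod at 9.45 CPM per kilobase, with the others at most 1.90. Among tumour lines the spread of Dcn, Ogn and Vcan exceeded the steps between these genes, so their order there is not firm. The place of Vcan also rests on its transcript: with the 2321-base short form in place of the 12427-base one, its mean was 84.2 CPM per kilobase in tumour lines and 425 in MSC, above Ogn in both groups.

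TL2 was set against TL1 to ask whether a second passage through a tumour moved the members. None of the 9 tested members passed, beside 0% of 13262 genes called lower and 0% called higher by edgeR. At an unadjusted p under 0.05 there were 246 genes, and Aspn was the only member among them. Its log2 change was 3.51 (SE 1.38, unadjusted p = 0.0247 in the edgeR fit across all genes). DESeq2 called 3 genes lower and 0 higher, with no member among them. Aspn in TL2 rested on TL2 3: without that library its log2 change was -1.17 (edgeR adjusted p = 0.999).

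Means of the abundant members differed between the 2 generations by less than the SD among TL1 libraries. That SD also holds the differences between title numbers, which the main fit did not take into account. Vcan averaged 210 ± 150 CPM in TL2 and 186 ± 106 CPM in TL1, and Ogn 86.6 ± 52.3 CPM in TL2 and 60.5 ± 68.0 CPM in TL1 (SD, n = 4 and 6). Dcn averaged 74.6 ± 113 CPM in TL2 and 76.3 ± 75.7 CPM in TL1, and Bgn 1114 ± 959 CPM in TL2 and 2304 ± 1921 CPM in TL1. The tested members had a median log2 change of 0.51, against 0.02 over all genes.

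The clones were compared to ask how the members differ between clones labelled p53 knockout and clones labelled p53 Mut. As the labels name no parent line, the p53 label and the origin of a clone cannot be told apart. Trp53 itself had 80.8 and 89.6 CPM in KO clone 1 and 2, against 358 and 280 CPM in Mut clone 1 and 2, a log2 change of -1.89 (SE 0.23, edgeR adjusted p = 0.00259). Its RNA was lower in both KO clones but still counted. Ogn and Fmod were higher in KO clones. Of the members, 5 had enough counts to be tested, 2 were called higher against 14.2% of 12238 genes, and 0 were called lower against 12% of genes. The tested members had a median log2 change of 1.46, against 0.00 over all genes. With 2 libraries per group, each clone pair rests on few samples, and when all 17 libraries shared 1 fit, neither Ogn (adjusted p = 0.324) nor Fmod (0.633) was called by edgeR.

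Ogn had 118 and 108 CPM in KO clone 1 and 2, against 37.0 and 20.8 CPM in Mut clone 1 and 2. Both KO clones stood above both Mut clones. The log2 change was 1.98 (SE 0.32, edgeR adjusted p = 0.00729), and it remained called on leaving out each clone in turn (edgeR adjusted p = 0.0135 to 0.0398). All 4 clones lay below the MSC range of 331 to 907 CPM. Aspn, its neighbour, had 0.551 and 1.67 CPM in KO clone 1 and 2, against 0.652 and 0.557 CPM in Mut clone 1 and 2, and was too low to be tested.

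Fmod had 0.866 and 1.43 CPM in KO clone 1 and 2, against 0.0725 and 0.159 CPM in Mut clone 1 and 2, that is 29 counts in KO clones and 3 in Mut clones. The groups did not overlap, at levels far below those of MSC. The ratio was 10.1, with a 95% counting interval of 3.13 to 51.8, and the fitted log2 change of 3.24 (SE 0.81, edgeR adjusted p = 0.03) depends on so few counts. The call was lost without Mut clone 1 (adjusted p = 0.196), Mut clone 2 (0.151) or KO clone 1 (0.0913), and without KO clone 2 the gene was not tested in the edgeR fit. DESeq2 did not call it either (log2 change 3.35, adjusted p = 0.115).

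Dcn ran the other way. It had 0.709 and 0 CPM in KO clone 1 and 2 (9 and 0 counts), against 3.26 and 4.14 CPM in Mut clone 1 and 2 (45 and 52 counts). Both KO clones lay below both Mut clones. The log2 change of -3.33 (SE 1.07) did not pass in edgeR (adjusted p = 0.0662). Of 6 alternative fits that left out no clone, 2 called it: DESeq2 (adjusted p = 0.0423) and limma-voom (log2 change -4.41, adjusted p = 0.033). In edgeR without KO clone 1 the log2 change was -8.58, which stands against a library at 0 counts and is no bound.

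Vcan had 176 and 149 CPM in KO clone 1 and 2, against 94.3 and 115 CPM in Mut clone 1 and 2. The groups did not overlap, and the log2 change of 0.65 (SE 0.22) did not pass in edgeR (adjusted p = 0.0687), while DESeq2 called it (adjusted p = 0.0323). Bgn had 1603 and 102 CPM in KO clone 1 and 2, against 113 and 518 CPM in Mut clone 1 and 2. The ranges of the 2 labels overlapped, and the log2 change of 1.46 (SE 1.45, edgeR adjusted p = 0.509) was -1.61 without KO clone 1 (adjusted p = 0.367). KO clone 2, with the lower Bgn, is also the library with 4.14% of counts on Rn45s. Any link between them was not tested.

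The other members had few counts in the clones and were not tested. Prelp had 7.16 and 0.478 CPM in KO clone 1 and 2, against 0.217 and 0.239 CPM in Mut clone 1 and 2. Acan had 0 counts in both KO clones and 5 and 6 counts in Mut clone 1 and 2. Lum had 1 count in all 4 clones.

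Markers of other cell types differed between the clones beside these members. All 6 skeletal muscle markers were called higher in KO clones and summed to 1976 to 3160 CPM there, against 3.84 to 3.98 CPM in Mut clones, where Myf5 and Actc1 were at 0. Of the 12 mesenchymal stromal markers, 11 were tested. Col1a1, Pdgfrb and Cxcl12 were called higher and Pdgfra, Ly6a and Twist1 lower. Of the 11, 8 had a negative edgeR log2 change for KO clone minus Mut clone and 3 a positive one, with a median of -1.22. The list summed to 2314 to 2420 CPM in KO clones and 1208 to 1848 CPM in Mut clones, so the sum does not stand for the list. All 3 tested neural markers, Nes, Tubb3 and Ncam1, were called higher, and the 6 of that list summed to 1277 to 1346 CPM in KO clones and 158 to 193 CPM in Mut clones, with Sox10 at 0 in both. The 6 epithelial markers summed to 3.51 to 3.62 CPM in KO clones and 35.2 to 111 CPM in Mut clones, with Krt18 called lower and Krt14 higher of 2 tested. Of 3 tested osteoblast markers, 2 were called higher. The 8 of that list summed to 803 to 810 CPM in KO clones and 1010 to 1138 CPM in Mut clones. Of 4 tested chondrocyte markers, 1 was called higher. Of 3 tested macrophage and haematopoietic markers, 1 was called lower and 1 higher. No endothelial marker had enough counts to be tested. Over all 12238 genes tested in the clones, 14.2% were called higher and 12% lower. The part of these lists in the results on the members was not tested.

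Genes that build, bind or cut these proteoglycans were taken from 8 related lists. In tumour lines, edgeR called lower Dse, the epimerase that turns chondroitin into dermatan sulfate, at 49.8 ± 14.1 CPM in tumour lines and 183 ± 24.2 CPM in MSC (log2 change -1.84, SE 0.26, edgeR adjusted p = 0.00155), and Tmem2, a cell surface hyaluronidase in mouse, at 40.3 ± 12.9 CPM in tumour lines and 147 ± 12.7 CPM in MSC (-1.83, SE 0.25, adjusted p = 0.00120). Chsy1, which elongates chondroitin chains, also fell (log2 change -1.31, SE 0.23, edgeR adjusted p = 0.00463). The cartilage collagens Col2a1 (-7.97, SE 0.84, adjusted p = 0.000238) and Col11a1 (-7.22, SE 1.06, adjusted p = 0.00175) had the largest falls in edgeR among the genes of these lists. These 5 genes were called on leaving out each of the 13 libraries in turn.

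By list, tumour lines showed 4 of 28 tested genes of chondroitin and dermatan sulfate synthesis lower and 0 higher, beside 4.79% of all genes tested lower and 3.86% higher, with Chpf, a chondroitin polymerising factor (log2 change -1.17), and Papss2, which makes the sulfate donor (-2.95), beside Dse and Chsy1. Of 13 tested hyaluronan genes, 2 were lower and 1 higher: Tnfaip6, which transfers heavy chains to hyaluronan (-3.08), joined Tmem2, and the scavenger receptor gene Stab1 rose (3.18). Of 7 tested leucine-rich genes outside the members, Ecm2 and Omd were lower. Adamts1 was the only protease called of 8 (-1.66), Tgfbr3, the gene of betaglycan, and Gpc4, a glypican gene, were lower (-1.99 and -1.30) of 14 cell surface genes, and 2 of 7 cartilage genes were lower. None of 6 tested genes of keratan sulfate synthesis and not the 1 tested gene among other hyalectans and link proteins was called. Chpf, Papss2, Tnfaip6, Stab1, Adamts1, Tgfbr3 and Gpc4 all lost their call without MSC 3 (edgeR adjusted p = 0.0677 to 0.171), and all but Chpf also without MSC 1 (0.0566 to 0.159). Papss2, Tnfaip6, Stab1 and Gpc4 lost it without MSC 2 as well (edgeR adjusted p = 0.0652 to 0.0900), and Gpc4 and Papss2 were called in only 3 and 4 of the 13 such fits. With the lines summed per number, Tgfbr3 (edgeR adjusted p = 0.0547), Tnfaip6 (0.0569) and Papss2 (0.0627) were not called.

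In the KO clones, the related list with the most calls per gene tested was that of proteases that cut aggrecan, versican or leucine-rich proteoglycans: 6 of 7 tested were called higher and 0 lower. Beside this count and those of the other lists in KO clones stand 14.2% of all 12238 genes tested called higher and 12% lower. Adamts1 had 93.2 and 118 CPM in KO clone 1 and 2, against 19.7 and 27.5 CPM in Mut clone 1 and 2 (log2 change 2.18, SE 0.27, edgeR adjusted p = 0.00300). Adamts4, an aggrecanase, had 49.1 and 85.0 CPM in KO clone 1 and 2, against 12.1 and 5.81 CPM in Mut clone 1 and 2 (2.91, SE 0.46, adjusted p = 0.00799 in edgeR). Adamts5, the other main aggrecanase of mouse cartilage, had 61.6 and 199.6 CPM in KO clone 1 and 2, against 3.04 and 2.31 CPM in Mut clone 1 and 2 (5.62, SE 0.71, adjusted p = 0.00690 in edgeR), and lost its call without Mut clone 2 (adjusted p = 0.0536). Mmp14, a membrane-bound matrix protease, rose by 1.51 on the log2 scale and lost its call without KO clone 1 (edgeR adjusted p = 0.0675) or KO clone 2 (0.0577).

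Has2, the main hyaluronan synthase of mesenchymal cells, had 77.9 and 69.0 CPM in KO clone 1 and 2, against 1.81 and 0.875 CPM in Mut clone 1 and 2. It was the only called gene of 9 tested in the hyaluronan list (log2 change 5.77, SE 0.40, edgeR adjusted p = 0.000275). Of 12 tested cell surface genes, 6 were higher and 2 lower in KO clones, with the glypican genes Gpc1 (2.76), Gpc4 (2.60) and the NG2 gene Cspg4 (4.50) among the higher and Tgfbr3 (-3.06) among the lower. Has2, Adamts1, Adamts4, Gpc1, Gpc4 and Tgfbr3 were called on leaving out each clone in turn, and Cspg4 was not without Mut clone 2 (edgeR adjusted p = 0.0539).

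Podn (log2 change 4.08) and Optc (2.62) were the 2 called of 7 tested leucine-rich genes outside the members, both higher in KO clones. Optc was not called on leaving out any clone (edgeR adjusted p = 0.105 to 0.232), and Podn was called only without KO clone 1 (adjusted p = 0.0128 to 0.0721 over the 4 fits). The sulfotransferase genes Chst3 (2.63) and Chst12 (0.92) were the 2 called, both higher, of 26 tested for chondroitin and dermatan sulfate, and neither was called in most fits that left out a clone (edgeR adjusted p = 0.0346 to 0.133). Keratan sulfate genes went both ways in KO clones: B3gnt2 (-1.31) and Chst1 (-6.91) were lower, and Chst2 (1.69) and B4galt4 (2.01) higher, of 5 tested. Each of these 4 lost its call in at least 2 of the 4 fits that left out a clone (edgeR adjusted p up to 0.162). Of 4 tested cartilage genes, Col11a1 was called higher, with 869 counts in KO clones and 1 in Mut clones, a ratio of 907 (95% counting interval 162 to 35880). The KO clones themselves stood apart, at 6.53 and 62.6 CPM in KO clone 1 and 2, and the call was lost without Mut clone 1 (edgeR adjusted p = 0.112) or Mut clone 2 (0.111). When all 17 libraries shared 1 edgeR fit, Has2, Adamts1, Adamts5, Gpc4, Tgfbr3, B3gnt2, Chst2 and Col11a1 were still called between the clones, while Gpc1 (adjusted p = 0.0514), Chst3 (0.0581), Chst1 (0.105), Adamts4 (0.129), Optc (0.169), B4galt4 (0.179), Cspg4 (0.180), Podn (0.198), Mmp14 (0.243) and Chst12 (0.352) were not.

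**Figure D5:**
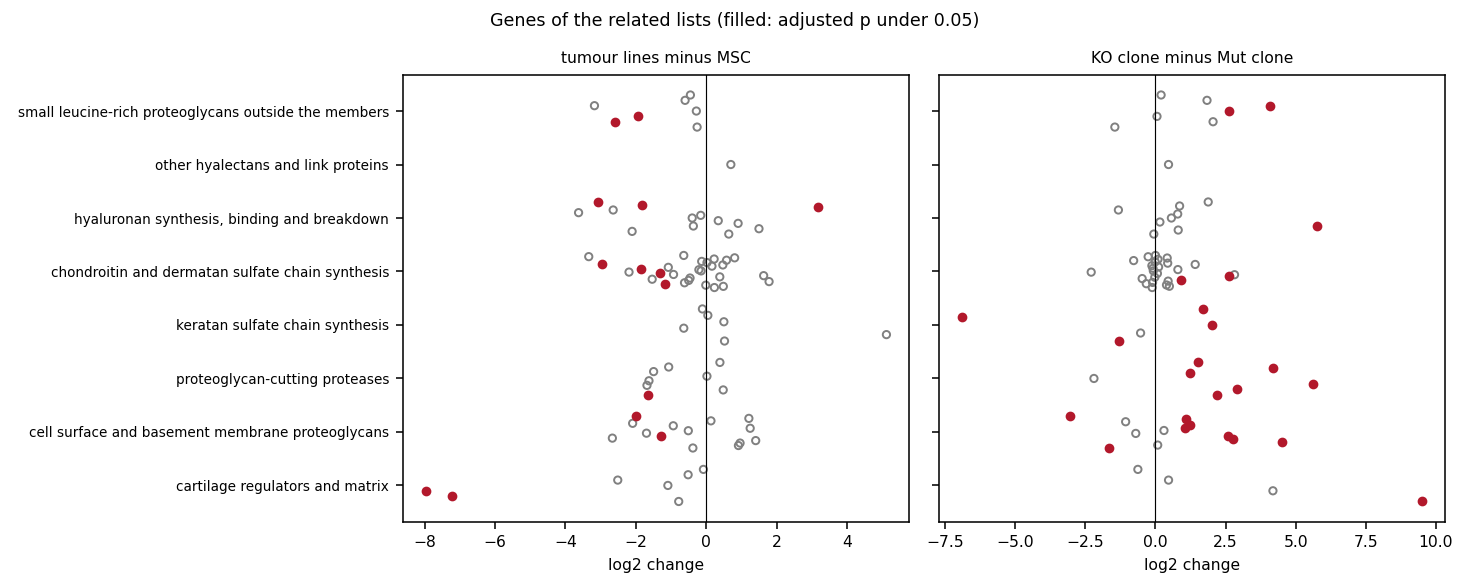
Log2 change of each tested gene of the 8 related lists in tumour lines minus MSC and in KO clone minus Mut clone, with filled points at an edgeR adjusted p under 0.05. Filled points lie mostly below 0 in tumour lines and mostly above 0 in KO clones, where 6 of 7 proteases are filled.

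Across the 17 libraries, Fmod, Ogn, Prelp, Aspn and Vcan, singled out after their values were seen, followed each other, with r of log2 CPM at 0.55 to 0.88 in all 10 of their pairs. Dcn had r of -0.23 to 0.31 with the other members. The pair with the highest correlation was Fmod and Vcan (r = 0.88), followed by Fmod and Prelp (0.79) and the neighbours Ogn and Aspn (0.77), while the neighbours Dcn and Lum had r = 0.24 and Dcn and Ogn the lowest, -0.23. These correlations describe 17 libraries that share groups and clone origins.

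Genes with the most similar pattern were found for the 6 members that reached a group mean of 10 CPM, by the root mean square difference of centred log2 CPM over 17 libraries. Vcan was closest to Tcf7l1 (0.48), the gene of a repressor in WNT signalling, and to Tmem2 (0.49). Ogn was closest to the protease gene Adamts12 (0.77) and the collagen gene Col6a1 (0.81), and Aspn to Nkd2 (1.18) and Agt (1.23). Dcn was closest to Bcl6b (1.41) and the neuronal adhesion gene Nrcam (1.5), Bgn to Gpx7 (1.44) and Myl12b (1.46), and Fmod to Ms4a4d (1.53) and the collagen gene Col6a3 (1.67). The spread of the members themselves (SD of log2 CPM) was 1.19 for Vcan, 1.84 for Ogn, 2.69 for Aspn, 3.04 for Dcn, 2.38 for Bgn and 3.21 for Fmod.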

How the data were processed

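Per the labels' protocols, barcoded cDNA libraries of total RNA, 17 of which are used here, gave single-end 60-base reads. The authors deposited raw counts, whole numbers for each gene symbol. Per the submitters' processing notes upstream tools included TopHat2 2.0.10, HTSeq 0.6.1p1, cutadapt and DESeq2 1.6.3, with build mm10. Annotation and strand setting: not given in the sources used here. A further 4 columns belong to none of these samples and were not used. Titles gave the groups. The members and all gene lists were chosen with earlier results of these data known.

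CPM were computed on TMM-scaled library sizes (trimmed mean of M values). Counts were tested with edgeR 4.0.16 (R 4.3.3): filterByExpr, TMM, robust quasi-likelihood fit, Benjamini-Hochberg adjustment over all genes tested, calls at an adjusted p under 0.05. Tumour lines (mean of the TL1 and TL2 coefficients) minus MSC and TL2 minus TL1 came from 1 fit of 13 libraries, KO minus Mut clone from a fit of 4, so 3 comparisons in all. The standard error is the absolute log2 change divided by the square root of F. The fits were also checked on counts simulated with the same dispersion for every gene and no likeness among lines of a number. That check does not cover spread that differs between genes or is shared within a number. Groups with 1 to 3 counts are given as ratios with exact binomial 95% counting intervals. No pair of libraries in a group differed by as little as sampling noise (chi-square, genes with 20 or more counts in the pair). Whether the libraries of a group are separate animals or cultures is not stated, so p-values measure only the spread between these samples, which may be technical.

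Named genes were the 10 members, Trp53, up to 4 called genes with the smallest adjusted p per related list in each of the comparisons of tumour lines with MSC and of clones, markers of other cell types only where called or highest of their list, and the 2 genes nearest in pattern to each member with a group mean of at least 10 CPM; Cenpp, Gm15851 and Rn45s were added after their values were seen. All 169 listed genes were found, 3 under an older symbol. Alternatives were DESeq2 1.42.0, limma-voom (limma 3.58.1), RLE factors, library totals, no filter, each library left out, lines summed per number, a replicate block and 1 fit of all 17 libraries. The main fits paired no libraries and took the 10 tumour lines as separate samples. Numbers in the titles entered only the replicate block and the sums per number. They were taken to pair TL1 with TL2, where the correlation of deviations was 0.376 to 0.490 for the 3 numbers. They were not taken to pair lines with MSC, where it was -0.03 to 0.20.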

Additional observations from a re-analysis of the deposited data

Results flagged for a closer look

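Of 18 sets of a tested member in TL1 or TL2, 5 held a library far from the others by Dixon's ratio of gap to range on log2 CPM. For independent, normally spread values chance gives about 1 in 20. These sets share libraries, and some lie near 0 counts in most libraries, so their number cannot be set against that rate. TL1 2a was the lowest for Bgn in TL1 (ratio 0.745; 27.9 CPM against 1474 to 5722 in the others). TL1 3a was the highest for Lum in TL1 (ratio 0.756; 36 of the group's 39 counts). TL2 2a was the highest for Fmod in TL2 (ratio 0.934; 80.8 CPM against at most 0.257). TL2 1 was the lowest for Ogn in TL2 (ratio 0.904; 10.3 CPM against 102 to 129). TL2 3 was the highest for Acan in TL2 (ratio 0.908; 7.91 CPM against at most 0.0647).

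For Dcn, all lines of number 1 lay above and all lines of number 2 below the MSC library of their number, and the mean log2 change of number 1 minus that of number 2 was 8.05. All lines of number 3 lay above MSC 3, and the difference of number 2 minus number 3 was -5.38. Of the lines of number 2, TL1 2a and TL2 2a were close to MSC 2, at 4.41 and 4.47 CPM against 4.85 CPM. Each number has a single MSC library. Neither difference was tested, and the numbers were not taken to pair lines with MSC.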

How the results depend on the processing

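Leaving out 1 library at a time, the count of members called lower in tumour lines was 0 to 3, and 0 were called higher in each; in KO clones the count called higher was 1 to 2 and lower 0 to 1. In these fits the lone clone of a label is assumed to vary like the others. DESeq2 called 1 member higher (Dcn) and 3 lower in tumour lines, Aspn among them, and in KO clones 1 lower (Dcn) and 2 higher, Ogn and Vcan but not Fmod. Limma-voom called 4 members lower in tumour lines and 1 lower in KO clones (Dcn). With all 17 libraries in one fit, 0 members were called higher in KO clones, where 512 genes were higher and 308 lower in all. The cause of these moves was not tested. Log2 changes that reversed, none of them called: Acan in tumour lines was -0.14 in limma-voom and -2.13 to 4.78 with a library left out, and Lum -1.26 to 0.66. In TL2 minus TL1, Acan was -0.35 in limma-voom, and with a library left out Acan was -4.84 to 2.05, Dcn -2.0 to 0.48, Fmod -5.84 to 5.36, Vcan -0.44 to 0.49, Aspn -1.17 to 4.47 and Trp53 -0.0073 to 0.26. Bgn in KO clones was -1.61 to 2.92.

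With a replicate block on the title numbers, 0 members and 0 genes were called in TL2 minus TL1, as without it, and Acan turned to -0.21. In tumour lines minus MSC, where the numbers were not taken to pair, the block called 3 members lower, with Aspn at -5.41 (edgeR adjusted p = 0.00192), and 968 genes lower and 718 higher in all. With the lines summed per number, 2 members were lower and 0 higher, and 619 and 551 of all genes; Vcan (edgeR adjusted p = 0.0189) and Ogn (0.0317) stayed called, and Aspn (0.239) was not. Library totals gave a median log2 change of all genes of -0.13 in KO clones, against 0.00, with 1816 genes lower and 1472 higher, against 1466 and 1734; no member changed sign. In tumour lines, with 635 genes lower and 512 higher, DESeq2 called 1041 and 1167 and limma-voom 964 and 378. With a library left out, 229 to 850 genes were lower and 75 to 682 higher in tumour lines, and 502 to 753 lower and 796 to 1016 higher in KO clones. Depth limits Hapln1, Lum, Acan and, in clones, Fmod and Prelp, which had few counts.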
